A study of Homo sapiens with 18 samples.

Results

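After 60 min of camptothecin (CPT), DNA-RNA hybrids were called in other stretches of genes than in untreated cells: intervals with a peak only in treated cells lay mostly toward the 5′ ends of genes, and intervals with a peak only in untreated cells lay mostly toward the 3′ ends. The intervals came from 4 peak lists of DNA-RNA immunoprecipitation sequencing (DRIP-seq) in HCT116 cells, an established human line of epithelial origin from a colorectal carcinoma. Joining the peaks of these lists wherever they shared 1 bp or more gave 116697 intervals. An interval was called gained when both 60 min CPT lists and neither untreated (NT) list had a peak in it, and lost when both NT lists and neither 60 min list did. By this rule 8562 intervals were gained, 7.34% of the 116697, and 3570 were lost, 3.06%. A further 5855 intervals held a peak of all 4 lists, and the other 98710 were shared in some other way or belonged to 1 list. Merging all 6 DRIP lists of the series, those after 5 min of CPT included, gave 143381 intervals.

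The 4 libraries were NT replicates 1 and 2, from cells that received no CPT, and 60 min CPT replicates 1 and 2, from cells exposed to 10 μM CPT for 60 min. No other agent or modification is given for either group, and the 2 biological replicates of each group were each a pool of parallel immunoprecipitations. The series holds 18 samples: DRIP, DRIP after digestion of the DNA with RNase H, and input, each for NT, 5 min CPT and 60 min CPT with 2 replicates. Genomic DNA was cut with restriction enzymes before the pull-down, so a peak locates a hybrid to a fragment rather than to a base, and cells of all groups were detached and washed before lysis, so lysis followed the end of exposure with a delay.

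An R loop is a DNA-RNA hybrid with a displaced single strand of DNA, and it forms mostly where a nascent transcript pairs back with its template behind RNA polymerase II. The antibody S9.6 binds such hybrids, and RNase H, which degrades RNA in a hybrid, is the usual control for its specificity. DNA topoisomerase I relaxes the supercoils that a moving polymerase creates, and CPT traps the enzyme on the DNA break it makes, as a cleavage complex that can block elongation.

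The lists record whether a peak was called and how strong it was, with no read counts, so an interval without a peak is one in which no peak passed the threshold, not one shown to be free of hybrids. The weakest carrying peak of a gained interval had a −log10 q of 1.32 at the lowest and 3.27 at the median, and that of a lost interval had 1.30 and 3.07. Just outside the rule were 4346 intervals with peaks of both 60 min lists and of a single NT list, of which 3479 had NT replicate 2 and 867 had NT replicate 1. Another 2722 had peaks of both NT lists and of a single 60 min list. The lists differed in length more within each group than between the group means: they held 30314 and 52967 peaks in NT replicates 1 and 2 and 41668 and 72879 in 60 min replicates 1 and 2. The difference of 15633 peaks between the group means did not exceed that spread (exact permutation test over libraries, two-sided p = 0.667, where 2 against 2 libraries allow no p below 0.333). Within each replicate number the 60 min list was the longer one, by 11354 peaks for replicate 1 and 19912 for replicate 2. With the replicate number as a block the exact sign-flip p was 0.5, the smallest possible.

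A single RNase H control library stood apart and touches every count of gained intervals. The RNase H-digested control of 60 min replicate 2 had 67188 peaks, against 5392 in the control of 60 min replicate 1, 15790 in that of NT replicate 2 and 473 in that of NT replicate 1. Of the gained intervals, 6423 (75.0%) met a peak of that control and 136 (1.59%) met one of the control of 60 min replicate 1. Intervals with a peak in all 4 DRIP lists met the control of 60 min replicate 2 still more often, in 92.4%, and met the control of NT replicate 2 in 29.9%. For the other 98710 intervals these 2 shares were 26.1% and 4.63%. Of the lost intervals, 531 (14.9%) met a peak of the control of NT replicate 2. How far incomplete digestion or another origin of this signal entered the gained intervals was not tested, and the main values are therefore also given for the 2125 gained intervals (24.8%) that met no peak of either 60 min control. When DRIP peaks that met a control peak of the same treatment and replicate were removed before the lists were compared, 2313 intervals were gained and 4087 were lost, so that the order of both counts turned round.

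For a view of the sequences under the strongest of these peaks, 150 bp windows at the peak summit are printed for the 3 gained and the 2 lost intervals that ranked highest by within-list fold enrichment among those whose window overlapped no untranslated region. Each is given 5′ to 3′ on the coding strand of the gene, from GRCh37 (hg19), with runs of at least 3 G in capitals because runs of G on the coding strand are a known feature of stretches that form stable R loops. The gained windows are in a later intron of RPLP1 (chr15:69746958-69747107, + strand), in the first intron of MRPS14 (chr1:174988167-174988316, − strand) and in the first intron of VCL (chr10:75759523-75759672, + strand). The lost windows are each in an intron after the first one, of MLXIPL (chr7:73014457-73014606, − strand) and NUTM2G (chr9:99699873-99700022, + strand).
RPLP1, gained: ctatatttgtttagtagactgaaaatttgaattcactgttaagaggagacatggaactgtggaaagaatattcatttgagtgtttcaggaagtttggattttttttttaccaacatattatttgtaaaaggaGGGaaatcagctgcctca
MRPS14, gained: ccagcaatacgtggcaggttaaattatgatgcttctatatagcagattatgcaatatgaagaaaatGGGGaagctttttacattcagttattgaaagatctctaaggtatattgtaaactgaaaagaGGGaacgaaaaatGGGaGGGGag
VCL, gained: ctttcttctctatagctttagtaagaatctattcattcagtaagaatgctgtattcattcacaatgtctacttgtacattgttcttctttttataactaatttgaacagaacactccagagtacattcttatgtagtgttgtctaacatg
MLXIPL, lost: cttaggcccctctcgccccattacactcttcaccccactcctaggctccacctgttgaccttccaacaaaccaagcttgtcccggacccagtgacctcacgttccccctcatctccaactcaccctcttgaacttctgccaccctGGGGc
NUTM2G, lost: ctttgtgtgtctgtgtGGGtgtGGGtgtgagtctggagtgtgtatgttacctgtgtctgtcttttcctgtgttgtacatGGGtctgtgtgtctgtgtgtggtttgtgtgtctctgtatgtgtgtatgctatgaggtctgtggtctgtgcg

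The 3 gained windows were poor in G and C, with a GC content of 32% at RPLP1, 36% at MRPS14 and 30.7% at VCL, and held 1, 4 and no runs of G. The 2 lost windows had a GC content of 58.7% at MLXIPL and 48.7% at NUTM2G, and held 1 and 3 runs. Windows lower in the ranking, not printed, did not keep to this split. The gained one at RPS29 had 48.7%, and the lost ones at DCBLD2 and TBC1D9B had 38.7% and 58%. Over all members the median GC content was lower for gained than for lost intervals. In 300 bp windows at the summits, the median GC content was 46% for gained intervals, 52.7% for lost intervals and 52.0% for intervals of all 4 lists, against 47.3% over all 116697 intervals. A quadruplex-type motif, 4 runs of at least 3 G separated by 1 to 7 bases of any kind on either strand, was found in 3.38% of gained windows, 10.8% of lost windows and 12.1% of the windows of all 4 lists, against 5.68% over all intervals. G over C skew on the coding strand, the quantity (G − C)/(G + C), differed little, with medians of 0.0303 for gained, 0.0258 for lost and 0.0289 for intervals of all 4 lists. The 2125 gained intervals without a 60 min RNase H control peak had a median GC content of 46.3% and the motif in 4.28%. These are descriptions of the windows, since position in the gene, GC content and the recovery of a fragment vary together and were not separated.

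Gene parts were read at the midpoint of each interval, in the order start window (within 1 kb of the start of a protein-coding gene), end window (within 1 kb of its end), exon, intron and flank. Gained intervals were found in first introns above all: 3172 of 8562 (37.0%, 95% Wilson interval 36.0 to 38.1) had their midpoint there, against 258 of 3570 lost intervals (7.23%, 6.42 to 8.12) and 20.2% of all intervals. The Wilson intervals cover counting error alone, as intervals of a library are not replicates of the treatment. Lost intervals lay in later introns instead, 1761 of them (49.3%) against 2629 gained intervals (30.7%). Start windows held 8.36% of gained and 2.61% of lost intervals, against 5.77% of all intervals and 14.0% of those of all 4 lists.

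In end windows, coding exons and between genes the lost share was the larger one. End windows held 2.64% of gained and 4.37% of lost intervals against 2.89% of all, and coding exons held 1.85% and 5.18% against 2.34%. Among intervals more than 10 kb from any protein-coding gene and in no lncRNA gene, the share was 3.41% of the gained and 11.5% of the lost, against 12.9% of all intervals, so that lost intervals lay near the background there and gained ones below it. In all, 85.9% of gained and 75.4% of lost intervals lay in a protein-coding gene or its start and end windows. Read the other way, 13.5% of all merged intervals in first introns were gained and 1.10% were lost, while in coding exons 5.78% were gained and 6.76% were lost.

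**Figure D1:**
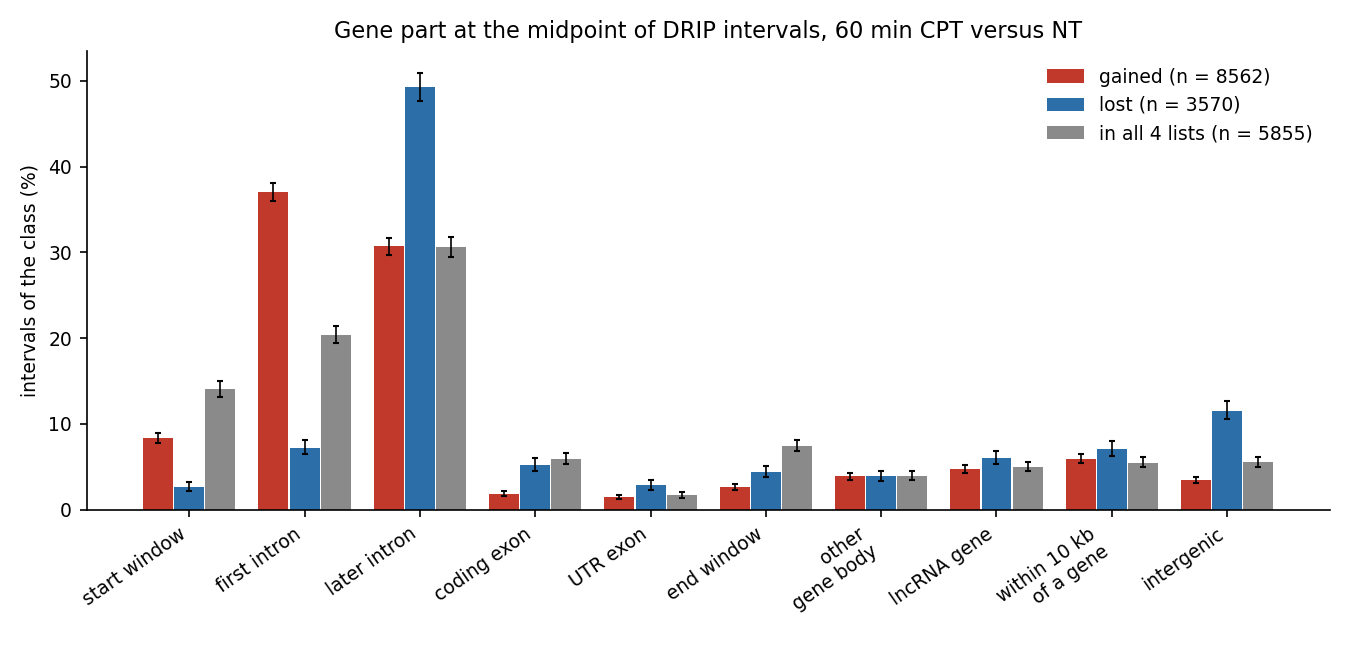
Share of intervals (%, vertical axis) whose midpoint lies in each gene part (horizontal axis) for 8562 gained, 3570 lost and 5855 intervals with a peak in all 4 lists; error bars are 95% Wilson intervals. First introns hold 37.0% of gained and 7.23% of lost intervals, and later introns hold 30.7% and 49.3%.

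Intervals clear of the RNase H controls gave a similar picture. Of the 2125 gained intervals that met no 60 min control peak, 30.1% were in first introns and 9.69% in start windows, and of the 3036 lost intervals that met no NT control peak, 7.54% were in first introns. For the gained intervals that did meet a 60 min control peak, the share in first introns was 39.4%.

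Position along the gene, which the rule did not use, separated both classes. For the 6366 gained intervals whose midpoint lay in a single protein-coding gene, the median position was 16.9% of the gene's length from its start (quartiles 6.35 and 39.0), and for the 2422 such lost intervals it was 69.5% (45.7 and 86.7). The intervals of all 4 lists and all intervals had medians of 35.3% each. The first 10% of genes held 35.5% of gained and 3.43% of lost intervals, and the last 10% held 2.40% and 19.7%. Gained intervals that met no 60 min RNase H control peak had a median position of 19.4%, and lost intervals that met no NT control peak had one of 70.3%. With 60 min replicate 2 left out, so that gained intervals rested on 60 min replicate 1 alone, the medians were 23.1% for gained and 64.0% for lost intervals, and with 60 min replicate 1 left out they were 20.8% and 68.5%.

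In kilobases, gained intervals took their highest share of all intervals from 2 to 10 kb past the gene start, and start windows were above the overall 7.34% as well, with 10.6% of their intervals gained. The median distance of gained intervals from the gene start was 7.63 kb, 51.0% of them lay 5 to 20 kb from it, and 5.72% lay within the first 1 kb. Lost intervals had a median distance of 42.4 kb from the start and 17.7 kb from the end of the gene, and 14.7% of them lay 5 to 20 kb from the start. Of all merged intervals in a single gene, the share that was gained was 11.2% within 1 kb of the start, 15.7% from 2 to 5 kb and again from 5 to 10 kb, 9.73% from 10 to 20 kb and 4.09% from 20 to 50 kb. The share that was lost was under 2% in each bin up to 20 kb, reached 6.59% from 20 to 50 kb and 7.42% from 50 to 100 kb, and was 2.98% beyond 200 kb. Along the gene, gained intervals outnumbered lost ones in each 10% bin up to the one from 50 to 60% of its length (5.58% against 4.23% of intervals), and lost ones outnumbered gained ones from 60 to 70% on (5.28% against 4.66%).

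**Figure D2:**
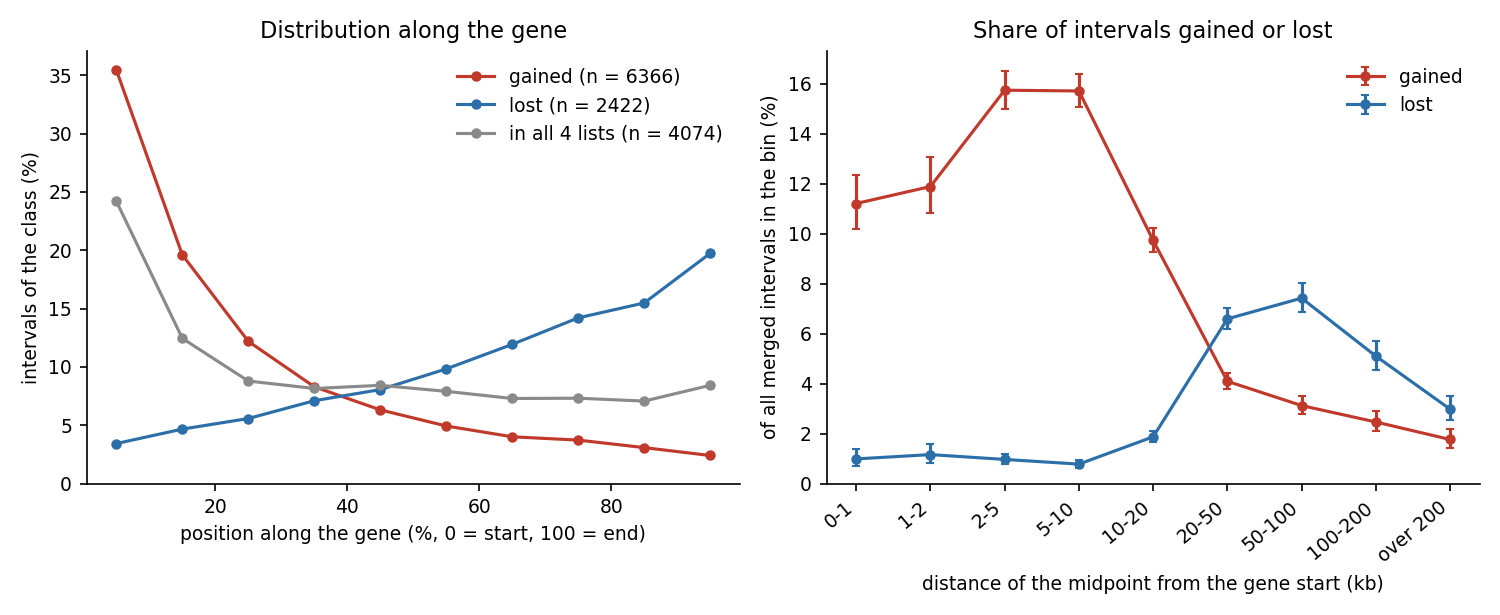
Left, share of the gained, lost and all-list intervals (%) in each 10% bin of the gene, from start (0) to end (100). Right, share of all merged intervals (%) that were gained or lost by distance of the midpoint from the gene start in kb, with 95% Wilson intervals; gained intervals peak at 15.7% between 2 and 10 kb, and lost intervals exceed gained ones from 20 kb on.

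Both scales were also read by gene length. In genes of 10 to 30 kb the gained intervals had a median position of 33.0% and a median distance from the start of 6.34 kb, in genes of 30 to 100 kb of 15.0% and 8.10 kb, and in genes of 100 to 300 kb of 6.64% and 9.70 kb. Over these 3 classes the distance moved far less than the percentage, but in genes over 300 kb, with 269 gained intervals, it was 33.5 kb at 8.43%. Lost intervals had median positions of 69.4%, 72.4%, 66.0% and 60.4% in the same 4 classes, at distances of 14.2, 37.0, 93.8 and 278 kb from the start. Genes under 10 kb gave no such separation, with median positions of 52.3% for 289 gained and 47.1% for 70 lost intervals.

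The whole lists, which the rule did not select, gave the comparison between groups. The median position of all peaks in a single gene was 52.1% and 49.6% in NT replicates 1 and 2 and 28.2% and 25.6% in 60 min replicates 1 and 2. The groups did not overlap, and the difference was −23.9 percentage points for both replicate numbers (exact permutation test over libraries, two-sided p = 0.333, the smallest that 2 against 2 allow). Peaks in first introns made up 12.6% and 14.3% of the NT lists and 23.9% and 26.3% of the 60 min lists. That is 13.4% ± 1.22 against 25.1% ± 1.68 (mean ± SD, n = 2 each, exact permutation p = 0.333). The first 10% of genes held 12.8% and 14.7% of peaks in NT and 25.4% and 27.3% after 60 min. Peaks in start windows moved much less, from 6.89% and 7.91% to 9.39% and 8.30%.

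Lists of such different lengths still gave values close to each other within a group: in both groups the replicate with fewer peaks was within 3 percentage points of the longer one in median position. Removing peaks that overlapped a peak of the RNase H control of the same treatment and replicate took 35700 peaks (49.0%) from 60 min replicate 2, 709 (1.70%) from 60 min replicate 1, 5721 (10.8%) from NT replicate 2 and 135 (0.445%) from NT replicate 1. The median positions were then 52.1% and 49.0% in NT and 28.0% and 27.7% after 60 min, and first introns held 12.6%, 14.7%, 23.9% and 23.9% of peaks in the same order. After 5 min of CPT the DRIP lists had median positions of 39.5% and 40.4%, between those of NT and 60 min. Among the RNase H controls the median position was 57.0% and 51.2% in NT. It was 45.5% in 60 min replicate 1 and 28.0% in 60 min replicate 2. The control with the most peaks thus lay near both 60 min DRIP lists, which were at 28.2% and 25.6%.

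**Figure D3:**
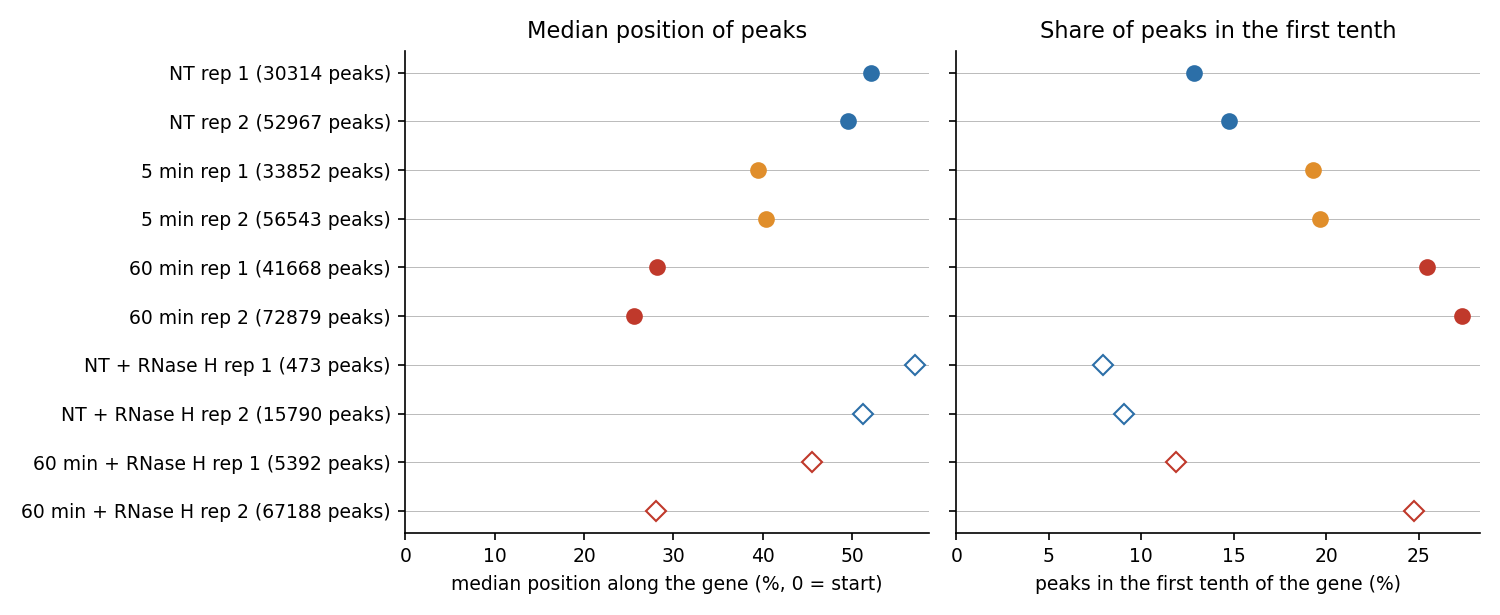
Median position of peaks along the gene (left, %, 0 = start) and share of peaks in the first 10% of the gene (right, %) for each DRIP list (filled circles) and RNase H control (open diamonds), 1 point per library. NT lists sit at 52.1% and 49.6%, 5 min lists at 39.5% and 40.4%, and 60 min lists at 28.2% and 25.6%.

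The same shift was seen in the bases that peaks covered. Over the 6154 protein-coding genes of at least 30 kb that overlapped no other such gene, peaks covered 1.28% and 3.16% of the first 10% of the gene in NT and 3.81% and 11.6% after 60 min, a ratio of the means of 3.48 (exact permutation p = 0.333). In the last 10% the means were 2.12% ± 1.06 in NT and 0.814% ± 0.535 after 60 min (SD, n = 2 each), which is 2.61-fold less (exact permutation p = 0.333). By distance the largest ratio was 4.51, at 5 to 10 kb from the start, where coverage was 2.50% ± 1.37 in NT and 11.3% ± 7.85 after 60 min (exact permutation p = 0.333). Coverage from 20 to 50 kb was 0.576 times and from 50 to 100 kb 0.502 times that of NT, but there the 2 groups overlapped (exact permutation p = 0.667 for each). They overlapped too from 0 to 2 kb and from 10 to 20 kb, at ratios of 2.28 and 2.09 (exact permutation p = 0.667 for each). In both groups replicate 2 had the higher value in each bin. Peaks that met an RNase H control peak were kept in these values. The control of 60 min replicate 2 itself covered 6.61% of the first 10% of the gene and 10.3% at 5 to 10 kb. That of 60 min replicate 1 covered 0.0998% and 0.131%. For the NT controls the first 10% was covered over 0.00405% in replicate 1 and 0.251% in replicate 2. How far such signal entered the ratios was not tested.

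**Figure D4:**
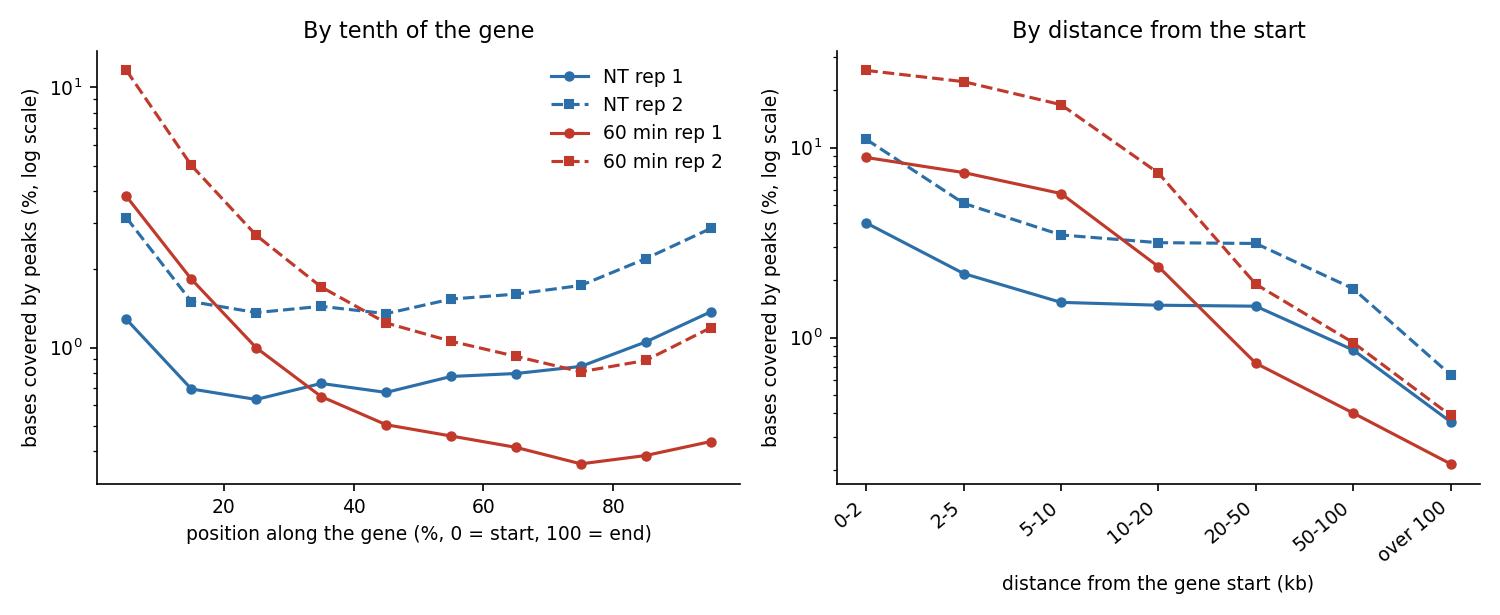
Bases covered by peaks (%, log axis) by 10% bin of the gene (left) and by distance from the gene start in kb (right) over 6154 genes of at least 30 kb, 1 line per library. The 60 min lines lie above both NT lines from 0 to 20% of the gene and below both from 70% to its end. Peaks that met an RNase H control peak were kept.

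Gained intervals overlapped 5133 of 20163 protein-coding genes (25.5%) and lost intervals overlapped 1801 (8.93%), and these 2 shares are the background for every count of genes that follows. Of the genes with a gained interval, 3049 had a single one, 2084 had 2 or more and 56 had 5 or more. Of those with a lost interval, 1215 had a single one, 586 had 2 or more and 69 had 5 or more. Genes with either class were longer than genes in general: the median length was 27.2 kb over all genes, 47.2 kb for genes with a gained and 55.8 kb for genes with a lost interval. The share of genes with a gained interval went from 7.59% of genes under 10 kb to 37.8% of those of 100 to 300 kb and was 26.2% over 300 kb, and the share with a lost interval went from 1.79% to 14.8% and was 12.9% over 300 kb. When only gained intervals without a 60 min RNase H control peak were counted, 1667 genes (8.27%) had one.

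Genes that held both classes had them in a fixed order far more often than not. Of the 678 genes with both, 510 had midpoints of each class that lay in that gene alone, and in 474 of these (92.9%) the gained intervals were nearer the start by their medians. In 452 (88.6%) every gained interval came before every lost one, and in 32 the reverse was true. The medians over these genes were 13.1% along the gene for gained and 74.7% for lost intervals, at a median gene length of 80.7 kb. Within such a gene both classes were read against the same annotated start, end and length. The classes over all genes lay in the same order, with medians of 16.9% and 69.5%. How often that alone would give this order within a gene was not tested. Transcription along these genes was not measured in this series.

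Of the genes with both, those with the strongest peaks by the ranking were RRBP1, YWHAE, SYTL3 and EZR. From here on, a pair of values given with an interval is its fold enrichment over input in replicates 1 and 2 of the group that carried it, and a gene's coverage is the share of its bases under peaks in replicates 1 and 2. Coverage takes in the intervals by which a gene was chosen, so its values in both groups are a description and no support for a difference. In RRBP1, a ribosome-binding protein of the endoplasmic reticulum, a gained interval lay in the first intron 2.18 kb from the start, with fold enrichments over input of 4.89 and 5.29 in 60 min replicates 1 and 2. Its lost interval lay in a later intron 65.2 kb from the start, with fold enrichments of 8.40 and 11.7 in NT replicates 1 and 2. In YWHAE, which encodes 14-3-3 epsilon, the gained interval lay 9.27 kb from the start with fold enrichments of 9.07 and 10.8, and the lost one 47.6 kb from it with 4.51 and 3.19. Both genes thus had the gained interval upstream of the lost one. After 5 min of CPT a peak was still called in the lost interval of RRBP1 in replicate 2 and in that of YWHAE in both replicates. EZR, which links the plasma membrane to actin, and its convergent neighbour SYTL3 shared a lost interval with fold enrichments of 8.02 and 8.64 that could belong to either gene, since the peaks carry no strand.

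CDC45 and TOP3B, picked for the map after their values were seen, had the same layout in genes of DNA replication and topology. In CDC45, part of the replicative helicase, the gained interval that ranked highest lay 4.77 kb from the start with fold enrichments of 6.40 and 11.1, and the lost interval 37.6 kb from it with 4.78 and 6.01, while an interval at its start held peaks of all 4 lists. In TOP3B, a type IA topoisomerase that acts on DNA and RNA, the gained interval reached 5878 bp across the start and the first intron, with fold enrichments of 7.89 and 16.2, and the lost one lay 24.1 kb from the start with 4.56 and 8.50.

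**Figure D5:**
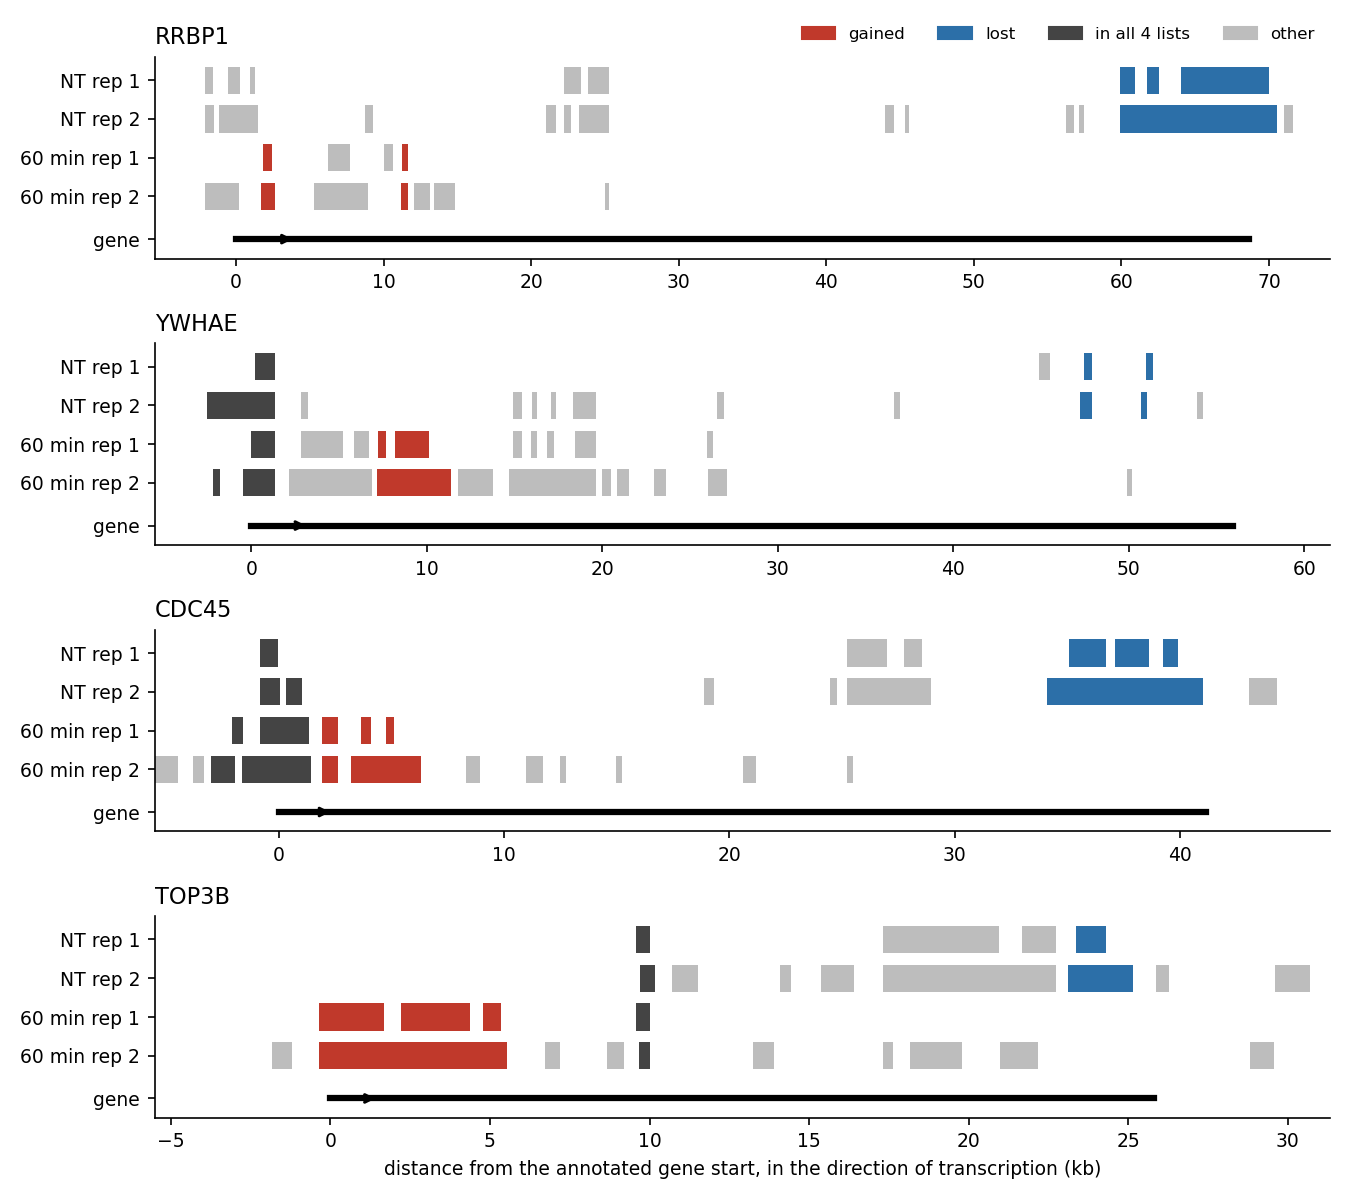
Peaks of the 4 DRIP lists along RRBP1, YWHAE, CDC45 and TOP3B, drawn to scale by distance from the annotated gene start in kb and in the direction of transcription; red marks gained, blue lost, black all-list and grey other intervals. In each gene the red peaks lie nearer the start than the blue ones, for example at 2.18 and 65.2 kb in RRBP1.

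Peaks at the start of a gene were also counted for the genes of each class. Peaks of both NT lists lay in the start window of 15.1% of genes with a gained interval and of 27.7% of those with a lost one, against 15.3% of all genes. Peaks of both 60 min lists lay there in 46.1%, 34.5% and 25.4%. An interval of all 4 lists was present in 31.2% of genes with a gained and 46.9% of genes with a lost interval, against 25.8% of all genes. The genes were chosen by peaks of these same 4 lists, and 716 gained and 93 lost intervals themselves lay in start windows. These shares are therefore a description and no support for a difference between the classes.

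The strongest gained intervals, ranked by the lower of both within-list percentiles of fold enrichment and limited to intervals over a single protein-coding gene, were at TRIM28, SOX4, RPLP1, MRPS14, VCL, RPS29, ZBTB37, PACRGL, CHSY1, PLEKHG4B, HNRNPA0 and SAV1. TRIM28, the corepressor that recruits heterochromatin factors to zinc finger proteins, had fold enrichments of 14.1 and 18.5 in 60 min replicates 1 and 2. Peaks covered 91.0% and 95.2% of that 6.66 kb gene after 60 min and none of it in NT. SOX4, a transcription factor gene of the SRY-box family, had fold enrichments of 15.2 and 18.1 and coverage of 24.99% and 60.90%, again with none in NT. These 2 short genes had no NT peak in either replicate. After 60 min peaks covered most of TRIM28 in both replicates and most of SOX4 in replicate 2 alone.

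RPLP1, a protein of the ribosomal stalk, had fold enrichments of 13.3 and 21.8 and coverage of 44.8% and 71.6% after 60 min against 0 in NT. MRPS14, a protein of the small mitochondrial ribosomal subunit, had 11.5 and 19.5 and coverage of 27.7% and 65.5% against 0. VCL encodes vinculin, which ties focal adhesions to actin, and it had a gained interval of 11.5 and 15.8 at 5.03 kb in the first intron of a gene of 126 kb. CHSY1, a chondroitin synthase, had one of 9.73 and 15.8 at 3.56 kb in its first intron. In VCL and CHSY1 the interval lay within the first few percent, at 3.99% and 4.66% of the length. Also near the start were those of PLEKHG4B (5.79%) and SAV1 (18.5%), and those of TRIM28 and ZBTB37 in start windows. Others of the 12 lay farther along, at 92.4% in HNRNPA0, 73.7% in SOX4, 62.9% in RPS29, 48.1% in MRPS14 and 32.8% in PACRGL. The one at RPLP1 had its midpoint in the end window. All 12 gained intervals met a peak of the RNase H control of 60 min replicate 2, as did 75.0% of gained intervals in general, and 1 of them, at RPS29, also met one of 60 min replicate 1.

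The 12 strongest lost intervals included those at MLXIPL, NUTM2G, DCBLD2, TBC1D9B, RRBP1, ACSF3, NIBAN2, MLLT6, SYMPK, MINK1 and PTPRF. Of the 12, 11 had their midpoint in a later intron and MINK1 in a coding exon, at positions from 44.8% to 95.1% of the gene. MLXIPL encodes ChREBP, a glucose-responsive transcription factor, and its lost interval had fold enrichments of 10.7 and 11.6 in NT replicates 1 and 2. Peaks covered 57.1% and 71.0% of MLXIPL in NT and 19.9% and 41.6% after 60 min, and 2 other intervals in it held peaks of all 4 lists. NUTM2G had fold enrichments of 9.96 and 10.8, with coverage of 27.7% and 60.6% in NT and none after 60 min. It belongs to a family of near-identical copies between which reads can be split, so its value is uncertain.

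SYMPK, the scaffold of pre-mRNA 3′ end processing, had a lost interval of 7.37 and 7.31 at 78.4% of its length, and 28.3% and 50.1% of the gene was covered in NT against 22.5% and 23.9% after 60 min. PTPRF, a receptor tyrosine phosphatase, held 7 lost and 2 gained intervals and was covered over 15.0% and 31.9% in NT against 4.25% and 8.23% after 60 min.

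Genes with the most gained intervals were POM121, ENSG00000285827 and ENSG00000284461 with 7 each and C8orf76, THEM4 and STIL with 6 each. In STIL, a gene of centriole duplication, peaks covered 6.83% and 15.9% of the gene after 60 min and none in NT. POM121, a nuclear pore protein, has near-identical copies, and its intervals are uncertain for that reason. Genes with the most lost intervals were RPTOR with 16, VAV2, MAD1L1 and ENSG00000286192 with 14 each, ANKRD11 with 11 and MPRIP with 10, the 14 intervals of ENSG00000286192 being those of MAD1L1, which it overlaps. All 6 are long, from 175 kb for MPRIP to 426 kb for ENSG00000286192.

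RPTOR, a subunit of the kinase complex mTORC1, was covered over 3.48% and 9.88% in NT and 1.41% and 2.58% after 60 min. VAV2 was covered over 10.3% and 30.1% in NT and 4.18% and 10.8% after 60 min. MAD1L1, a gene of the spindle checkpoint, went from 10.7% and 25.6% to 4.91% and 8.14%.

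Gene lists that bear on the drug and on these cells were counted against the backgrounds of 25.5% and 8.93%, and 8.27% for gained intervals clear of the 60 min RNase H controls. Clear gained intervals were far fewer in every list that had any, and their count is given with each. Counted that way, the immediate early, ribosomal protein, histone, RNAPII, heat shock and epithelial lists lay below the 8.27%. Among 11 genes of topoisomerases and tyrosyl-DNA phosphodiesterases, 8 (72.7%) had a gained and 2 (18.2%) a lost interval, and 2 (18.2%) had a gained interval clear of the controls. TOP1, the target of CPT, had a gained interval in a later intron 8.20 kb from its start, with fold enrichments of 5.34 and 7.39, and was covered over 0.406% and 0 in NT and 2.20% and 9.88% after 60 min. TDP2, which removes topoisomerase II adducts from DNA ends, had a gained interval in its start window with 6.10 and 6.05. RMI1, a partner of topoisomerase III alpha, had one in its first intron with 5.87 and 7.05. TOP3A itself held 2 gained intervals and a lost one, the latter 31.3 kb from the start with 4.45 and 2.69 in NT.

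Genes of DNA damage signalling and repair had a gained interval in 25 of 42 (59.5%) and a lost one in 6 (14.3%), and genes of DNA replication in 27 of 43 (62.8%) and 6 (14.0%). Clear of the controls, 8 damage genes (19.0%) and 13 replication genes (30.2%) had a gained interval. The gained intervals of PRKDC, EXO1 and ATRIP were among those that ranked highest in the first list. PRKDC, the catalytic subunit of DNA-PK, had 7.82 and 9.02 at 10.9 kb from the start, and EXO1, an end-resecting exonuclease, had 6.94 and 6.63 at 5.37 kb. FANCI, XRCC1, XRCC4 and FANCA had lost intervals of lower fold enrichment, such as 4.60 and 4.15 at FANCI.

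In the replication list MCM6, a subunit of the MCM helicase, had a gained interval of 7.33 and 10.4 at 4.16 kb. POLD3, a subunit of DNA polymerase delta, had one of 9.45 and 8.85 at 101 kb, 57.8% along a gene record of 175 kb. LIG1, the replicative DNA ligase, had a lost interval of 8.90 and 5.52 at 31.4 kb, and POLE, the catalytic subunit of polymerase epsilon, held 3 gained and 3 lost intervals. Median gene lengths in these lists were 43.6 kb for topoisomerases, 64.6 kb for damage genes and 33.3 kb for replication genes, all above the 27.2 kb of all genes, and the part of length in their counts was not tested.

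Immediate early genes, which respond to stimuli within minutes, were called near the background: they had a gained interval in 8 of 34 (23.5%) and a lost one in 0, with 26 of 34 also holding an interval of all 4 lists, and in 0 was a gained interval clear of the controls. DUSP1, a phosphatase of MAP kinases, was covered over 18.3% and 100% after 60 min and 0 in NT, with fold enrichments of 6.23 and 14.0. EGR2, a zinc finger transcription factor, had 6.27 and 12.4 and CCN2, a matricellular protein, 5.34 and 9.41, each with no NT peak in the gene. Of 27 p53 target genes, 11 (40.7%) had a gained interval, 4 (14.8%) one clear of the controls, and 1 a lost one. DDB2, a damage recognition factor of nucleotide excision repair, was covered over 5.72% and 7.25% in NT and 34.6% and 62.7% after 60 min. CDKN1A, which encodes the cell cycle inhibitor p21, was covered over 7.56% and 52.5% in NT and 73.3% and 88.2% after 60 min. CDKN1A was thus already widely covered in NT replicate 2.

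Genes of cytosolic ribosomal proteins mostly had peaks in all lists: of 79, 62 held an interval of all 4 lists, 20 (25.3%) a gained and 1 a lost interval, with 2 (2.53%) gained clear of the controls. RPL35A had a gained interval with fold enrichments of 19.5 and 13.5 and was covered over 43.1% and 95.1% after 60 min and 0 in NT, and RPL36A had one of 11.7 and 19.5. RPS9 had the lost one, of 9.03 and 5.19. Of 64 replication-dependent histone genes, whose median length is 0.509 kb, 14 (21.9%) had a gained interval, 1 (1.56%) one clear of the controls and 0 a lost one, and 27 had no peak in any list. H2AC11 and H2BC11 shared a gained interval of 5.85 and 12.8, and H2AC25 and H2BC26 shared one of 8.64 and 6.36, so each pair rests on a single interval.

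RNA-processing genes, chaperones and the enzymes that resolve hybrids were counted in the same way. Of 37 SR and hnRNP splicing factor genes, 20 (54.1%) had a gained interval, 7 (18.9%) one clear of the controls and 2 (5.41%) a lost one. SRSF3, an SR protein, had fold enrichments of 8.54 and 16.1 and was covered over 30.1% and 63.9% after 60 min against 0 in NT, and HNRNPC had 7.45 and 15.1 in its first intron. Among 31 heat shock and chaperone genes 16 (51.6%) had a gained interval, 2 (6.45%) one clear of the controls and 2 (6.45%) a lost one. DNAJA1, a co-chaperone of HSP70, had 11.7 and 14.8 at its start and was covered over 14.66% and 53.02% after 60 min against 0. Of 23 genes of RNase H and R loop helicases, 11 (47.8%) had a gained interval, 3 (13.0%) one clear of the controls and 0 a lost one. DHX9, a helicase that unwinds hybrids, had one of 5.28 and 9.07 at 7.07 kb, DDX5, another helicase, one of 5.37 and 16.5, and RNASEH2A, the catalytic subunit of RNase H2, one of 5.44 and 4.97 at its end.

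Among 41 genes of RNA polymerase II transcription and elongation, 7 (17.1%) had a lost and 15 (36.6%) a gained interval, the latter clear of the controls in 2 (4.88%). ELL, an elongation factor, held 5 lost and no gained intervals and was covered over 13.6% and 30.5% in NT against 1.19% and 5.74% after 60 min. CCNK, the cyclin partner of CDK12, held 3 lost intervals and was covered over 8.72% and 24.7% in NT and 0 and 11.7% after 60 min. CCNT2, a cyclin of the kinase P-TEFb, had a gained interval of 8.01 and 7.91 at 5.60 kb, and SUPT6H, a histone chaperone of elongation, one of 6.37 and 9.40 at 3.61 kb in its first intron.

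Wnt pathway and colorectal cancer genes, with a median length of 118 kb, had a gained interval in 16 of 28 (57.1%), one clear of the controls in 5 (17.9%) and a lost one in 4 (14.3%). CTNNB1, which encodes beta-catenin, had a gained interval of 5.87 and 11.4 at 11.9 kb in its first intron, and AXIN1, a scaffold of the beta-catenin destruction complex, one of 5.81 and 6.14 at 3.93 kb. SMAD3, a transducer of TGF-beta signals, had a lost interval of 4.61 and 5.44 at 109 kb, and TGFBR2, a receptor of TGF-beta, one of 5.56 and 4.48 at 76.1 kb. MSH6, a mismatch repair gene, had a gained interval of 5.87 and 7.12 at 99.3 kb of a gene record of 115 kb, far from the start of that record.

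Of 15 markers of epithelium, 3 had a gained interval (EPCAM, ELF3 and CDH1), 1 (6.67%) one clear of the controls, 1 a lost one (CLDN4), 6 an interval of all 4 lists and 3 no peak in any list. Of 11 markers of other cell types, 6 had no peak in any list, 1 held an interval of all 4 lists and 1, GFAP, a lost interval of 4.13 and 3.61. Expression was not measured in this series, so hybrids at these genes do not by themselves check the identity of the line.

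Gained intervals were partly in place after 5 min of CPT. A peak of 5 min replicate 1 was found in 23.3% of them and of replicate 2 in 46.4%, both lists had one in 1560 (18.2%), and neither had one in 4160 (48.6%). Intervals of all 4 lists met 5 min peaks in 65.3% and 91.2%, so part of them had no called peak in a 5 min list. Whether hybrids were missed there or were fewer at 5 min was not tested. Lost intervals met a 5 min peak in 13.1% and 30.6%, both lists in 233 (6.53%) and neither in 2244 (62.9%). Of the other 98710 intervals, 4.71% met both 5 min lists and 75.9% met neither. The classes differ in width, and a wider interval meets a peak more easily. Median widths were 1141 bp for gained, 944.5 bp for lost, 4604 bp for all-list and 451 bp for other intervals. The gained intervals present in both 5 min lists lay nearer the start, with a median position of 11.8%, a median distance of 4.74 kb and 14.1% in start windows. Those in neither 5 min list had 18.5%, 8.59 kb and 5.12%. The 5 min lists played no part in choosing the gained and lost intervals.

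Chromosomes differed in the balance of both classes. The gained share of merged intervals ran from 5.04% on chromosome 19 to 10.3% on chromosome X, and the lost share from 1.27% on chromosome X to 5.71% on chromosome 19. On chromosome 19, which is gene-dense and GC-rich, more intervals were lost (420) than gained (371), and on the other autosomes and X the reverse held.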

How the data were processed

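DRIP-seq libraries of HCT116 cells (NT, and 10 μM CPT for 5 or 60 min) were processed by the authors as follows. Reads were checked with FastQC, trimmed with cutadapt and aligned with BWA to hg19 and to the yeast genome sacCer3, which served as spike-in. Reads in ENCODE blacklisted regions and duplicates were removed with SAMtools and Picard, and MACS2 called peaks in each library against its own input. Aligner and caller versions and the treatment of reads with several matches are not given in the sources used here. The deposited peak lists give, for each peak, the fold enrichment over input as a ratio and the −log10 of the p-value and of the q-value, with a lowest −log10 q of 1.30 to 1.31 over the lists. Neither read counts nor spike-in factors are part of them, so the lists do not show the depth of the libraries, whose read totals the study gives and which are not used here, and the authors' limma test on normalized counts could not be run. Peaks were called per library.

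Peaks of the 4 lists were merged where they overlapped by at least 1 bp and classed by which lists had a peak. Genes were the 20163 protein-coding genes of GENCODE release 44 mapped to GRCh37, with 18702 lncRNA genes for the rest. A first intron is that of the representative transcript. Positions and distances run from the start to the end of the whole gene record, which can be longer than a given transcript. An interval far from the start of the record may therefore lie near the start of a shorter transcript. Sequences came from GRCh37. Named genes were the 12 genes with the strongest gained and the 12 with the strongest lost interval over a single gene, the 6 genes with the most of each, up to 4 with both, and up to 4 of each class in each of 14 gene lists, of which those with most to show are given. The members and gene lists were chosen with earlier results of these data known.

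Groups of 2 libraries were compared by exact permutation tests over libraries, two-sided, with a smallest possible p of 0.333. No test was run over intervals. Wilson 95% intervals cover counting error only. Code was tested on simulated lists. Analyses used Python 3.11.15, numpy 2.4.6, pandas 2.3.3, scipy 1.17.1, pysam 0.24.0 and matplotlib 3.10.9. The alternatives tried were lists cut to equal length, peaks with a −log10 q of 3 or more, 50% coverage of an interval, merging over 1000 bp, removal of peaks that meet RNase H control peaks, other gene windows, and leaving out libraries; those for first introns, and some for positions and gene counts, were chosen after seeing the data. The input samples and the RNase H control of 5 min CPT were not used here. Some named genes and a sequence are not reported here.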

Additional observations from a re-analysis of the deposited data

Results flagged for a closer look

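Peaks of the RNase H-digested control of 60 min replicate 2, a list that the comparison of DRIP libraries does not use, lay in 75.0% of the gained intervals, against 2.31% for the control of NT replicate 2. The control of 60 min replicate 1 met 1.59% of them. The rule asks for a peak of 60 min replicate 2 and for none of NT replicate 2, and their controls held 67188 and 15790 peaks. The 75.0% and 2.31% are therefore not a like comparison. Of all peaks of 60 min replicate 2, 49.0% met their own control, and that control met 26.1% of the 98710 other intervals. The signal is drawn to attention for the share of gained intervals that it touches, and its origin was not tested. The gained intervals that met no 60 min control peak, 2125 in number, had a median position of 19.4% along the gene, against 16.3% for those that did.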

How the results depend on the processing

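The number of gained intervals, 8562, was 5348 with lists cut to equal length, 5583 when peaks had to cover 50% of an interval, 5697 with merging over 1000 bp and 2313 after removal of peaks that met RNase H control peaks; leaving out libraries gave 9434 to 50464. The number lost, 3570, was 2304 at a −log10 q of at least 3 and 4087 after that removal, so that lost then outnumbered gained intervals, and leaving out libraries gave 3985 to 30542, the highest without replicate 1 of both groups. A class that needs 1 list in place of 2 is larger by construction. For start windows, the gained minus lost share of 5.76 percentage points was 9.84 with any overlap and 25.9 with windows of 5 kb, and 1.36 to 9.25 when libraries were left out, lowest without 60 min replicate 2. For end windows, the difference of −1.73 was −2.33 at a −log10 q of at least 3, −1.93 with equal lengths, −2.32 with 50% coverage, −2.30 after removal of RNase H peaks, −3.34 with any overlap and −8.24 with 5 kb windows, and −2.56 to −0.119 when libraries were left out, nearest 0 without NT replicate 2. The difference in peak number of 15633 was the same with the replicate number as a block (exact sign-flip p = 0.5, the smallest possible), 12758 at a −log10 q of at least 3, 7685 with merging over 1000 bp, 356.5 after removal of RNase H peaks and 27.5 to 31238.5 when libraries were left out, lowest without 60 min replicate 2. No listed difference changed its direction. The first intron difference of 29.8 points ranged from 16.5 to 30.7, the median position from 15.3% to 23.7% for gained and 59.3% to 71.4% for lost intervals. Genes with a gained interval, 5133, were 1826 after removal of RNase H peaks. The causes of these shifts were otherwise not tested, and peak lists without counts cannot separate weak hybrids from absent ones.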
